A study of Homo sapiens with 6 samples.

Results

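The NDUF genes are the nuclear genes named for NADH:ubiquinone oxidoreductase, complex I of the mitochondrial respiratory chain. All rows of the deposited table with a symbol starting with NDUF and a protein-coding transcript type were taken, which gave 48 of 60612 genes, and these were split by name into 8 assembly factors (NDUFAF1 to NDUFAF8) and 40 subunit genes. HCT116, an established human colorectal cancer line, was compared in 2 states: 3 samples carry the label si NC, for the control siRNA, and 3 the label PLOD3 siRNA, for knockdown of a collagen lysyl hydroxylase and glycosyltransferase gene, in both cases for 2 days in DMEM with 10% serum. RNA was sequenced after depletion of ribosomal RNA. Every sample is of the same line, the label names a single PLOD3 siRNA treatment, and the labels do not tell whether replicates were grown separately. The p-values therefore cover only sample-to-sample spread, and this spread may be purely technical.

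Complex I takes electrons from NADH, passes them along a chain of iron-sulfur clusters to ubiquinone and pumps protons across the inner mitochondrial membrane. Its catalytic core is made of nuclear-encoded subunits, which form the arm in the matrix, and of subunits encoded by mitochondrial DNA, which form the membrane arm. Around the core lie many accessory subunits, all nuclear-encoded, and assembly factors put the modules together without staying in the finished enzyme. Cancer cells use complex I for ATP and for the NAD+ that aspartate synthesis needs.

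Of the 48 genes, 46 had a mean FPKM (the authors' unit, fragments scaled for transcript length and depth) of at least 1 and were tested within edgeR's quasi-likelihood fit over 12000 genes. In PLOD3 siRNA 18 of the 46 rose and 0 fell at an adjusted p under 0.05, namely 16 of 38 subunit genes and 2 of 8 assembly factors. Over all 12000 genes 16.2% rose and 19.3% fell. The changes were modest, at most 1.72-fold among the called members. The median log2 fold change (PLOD3 siRNA relative to si NC) was 0.33 for the subunit genes and 0.39 for the assembly factors, against 0.0034 for all genes tested. The fitted value was positive in 41 of the 46, against 6036 of all 12000 genes. In 30 members all 3 PLOD3 siRNA samples had a higher FPKM than any si NC sample and in 0 a lower one. Among all genes tested 24.6% had such a separation upwards and 27.5% downwards. For any single gene, 0.1 is the smallest p that an exact two-sided permutation test can give with 3 samples a group. In such bulk RNA, more cells with a transcript and more of it per cell cannot be told apart.

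**Figure D1:**
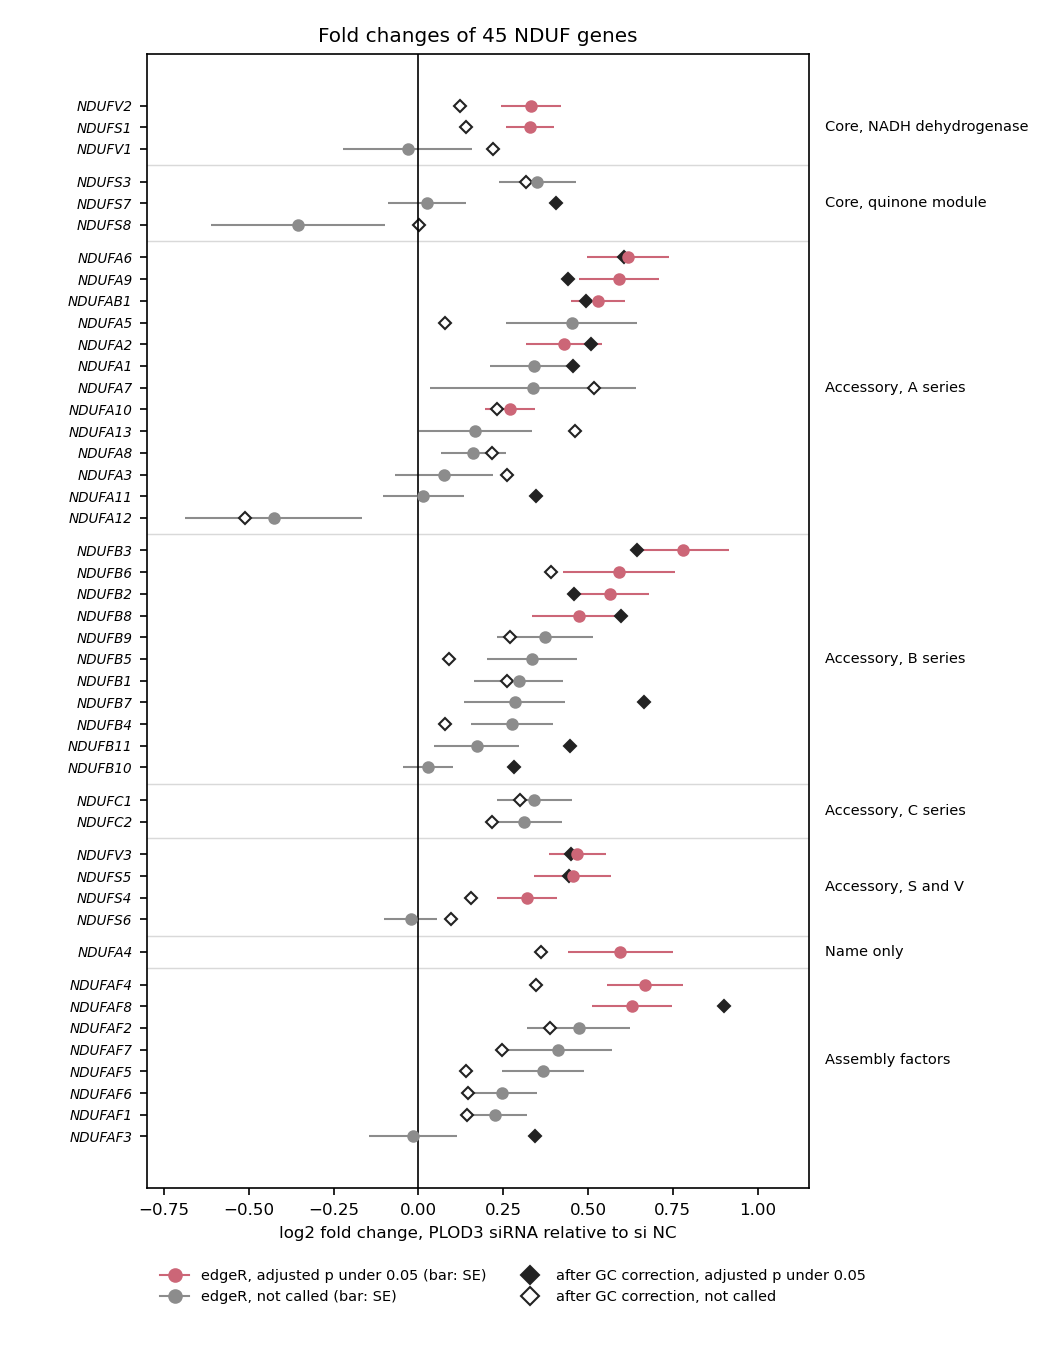
Each row is a tested NDUF gene, grouped by role, and the x axis is the log2 fold change of PLOD3 siRNA relative to si NC. Circles with bars are the edgeR value and its SE, coloured where the adjusted p is under 0.05, and diamonds are the value after the GC correction, filled where it passed. All coloured circles lie right of 0, the highest, NDUFB3, at 0.78; 45 members are drawn.

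Total estimated counts per sample were 55416555 to 76802428. PLOD3 was lower in all 3 siRNA samples, at 3.44, 3.40 and 4.05 FPKM against 6.40, 7.16 and 6.22 in si NC (log2 -0.85, SE 0.107, edgeR adjusted p = 0.0035). Of 7 markers of colorectal epithelium 6 had a mean FPKM of at least 1, and VIL1 was at or near 0 in all samples. Their summed FPKM ranged from 666 to 719.6 among the controls and from 562 to 638 among the siRNA samples. Of the 6 tested, CDH1, KRT18 and KRT19 (3) were called lower and 0 higher (median log2 -0.24), beside 19.3% lower and 16.2% higher over all genes. After the GC correction 1 was called lower (median -0.0681), beside 14.5% of all genes. The part of these markers in the results was not tested. Among 17 markers of other cell types (fibroblast, leukocyte, endothelium) only COL1A1 and CD68 reached a mean FPKM of 1, with summed levels of 2.66 to 2.82 against 1.49 to 1.92 for fibroblasts and 0.902 to 1.69 against 1.68 to 1.74 for leukocytes, and PTPRC, CD3E, DCN, LUM and CDH5 were listed without reads in all 6 samples.

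The 7 core subunits were split. NDUFS1, the largest subunit of the NADH dehydrogenase module and carrier of several iron-sulfur clusters, stood at 8.22, 7.36 and 7.47 FPKM in the controls and at 9.87, 9.73 and 9.22 in the siRNA samples. All 3 siRNA samples lay above the controls (7.68 ± 0.468 against 9.60 ± 0.342, SD, n = 3 each), and the gene rose (log2 0.33, SE 0.0709, edgeR adjusted p = 0.0150). NDUFV2, another iron-sulfur subunit of that module, was at 33.7, 31.2 and 31.7 FPKM in the controls and at 39.8, 43.4 and 37.7 in the siRNA samples. It rose without overlap as well (log2 0.33, SE 0.0875, edgeR adjusted p = 0.0284). NDUFV1, the subunit that binds FMN and NADH, overlapped between groups, at 12.9, 9.93 and 8.92 FPKM and at 8.94, 12.5 and 9.27 (log2 -0.03, SE 0.190, edgeR adjusted p = 0.914). The 3 subunits of this module thus gave 2 calls, neither of them for the NADH-binding protein.

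In the quinone module, NDUFS3 was at 10.7, 10.5 and 10.8 FPKM against 14.1, 14.8 and 11.7, with no overlap, and missed the threshold (log2 0.35, SE 0.113, edgeR adjusted p = 0.0520). NDUFS7 and NDUFS8 carry iron-sulfur clusters close to the quinone and showed overlapping groups. NDUFS7 was at 3.37, 4.14 and 3.38 FPKM in the controls and at 3.65, 3.70 and 3.69 in the siRNA samples (log2 0.03, edgeR adjusted p = 0.881). NDUFS8 was at 6.63, 11.5 and 6.92 against 5.99, 5.52 and 8.13 (log2 -0.35, SE 0.256, edgeR adjusted p = 0.315), with si NC replicate 2 well above the other 5 samples. Without that sample the value of NDUFS8 was -0.03 (edgeR adjusted p = 0.902).

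**Figure D2:**
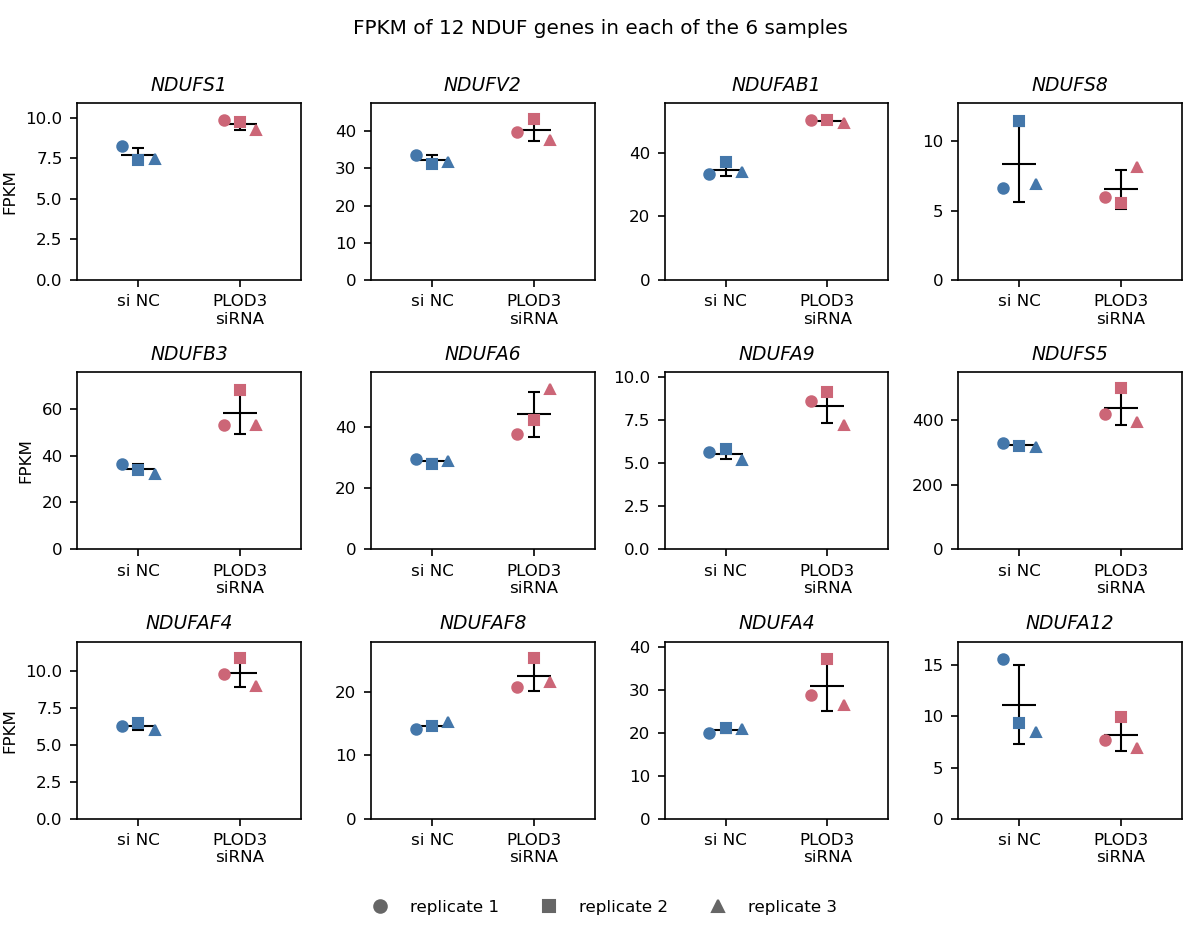
FPKM of 12 NDUF genes on the y axis, from 0, for si NC and PLOD3 siRNA; symbols mark the replicate number and black bars the mean ± SD (n = 3). NDUFB3 reached 52.9 to 68.1 in PLOD3 siRNA against 32.0 to 36.3 in si NC, while NDUFS8 and NDUFA12 overlapped, with 1 si NC sample above the rest.

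Of the 30 accessory subunits 12 rose and 0 fell, beside 16.2% higher and 19.3% lower over all genes tested. Their fold change was positive in 28, against 6036 of all 12000 genes tested, and the median log2 value was 0.34. By series, 5 of 13 NDUFA genes (NDUFAB1 included), 4 of 11 NDUFB genes, 0 of 2 NDUFC genes and 3 of the 4 accessory genes named NDUFS or NDUFV rose. All 11 NDUFB genes, which encode proteins of the distal membrane arm, had positive values, from 0.03 to 0.78.

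The largest change of all members was that of NDUFB3, a small membrane-arm protein, at 36.3, 34.0 and 32.0 FPKM in the controls and at 53.2, 68.1 and 52.9 in the siRNA samples (log2 0.78, SE 0.137, edgeR adjusted p = 0.0081). NDUFB2, of the same arm, was at 5.63, 5.17 and 5.06 FPKM against 7.68, 8.64 and 7.03 (log2 0.57, SE 0.114, edgeR adjusted p = 0.0122). In both, replicate 2 was the highest of the siRNA samples and no siRNA sample reached down to the controls. NDUFB6 and NDUFB8 also rose, by 0.59 and 0.47 on the log2 scale, and the other 7 genes of the series did not pass.

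In the NDUFA series, the LYR-motif protein NDUFA6 was at 29.6, 27.9 and 28.8 FPKM in the controls and at 37.7, 42.0 and 52.2 in the siRNA samples (log2 0.62, SE 0.120, edgeR adjusted p = 0.0111). NDUFAB1, the mitochondrial acyl carrier protein that binds LYR subunits of the complex and also serves lipoic acid synthesis, was at 33.3, 37.1 and 33.9 FPKM against 50.5, 50.3 and 49.3 (log2 0.53, SE 0.0803, edgeR adjusted p = 0.00542, the smallest p among the members). NDUFA9, which sits where the arms of the complex meet, was at 5.66, 5.79 and 5.18 against 8.58, 9.12 and 7.22 (log2 0.59, SE 0.118, edgeR adjusted p = 0.0118). These 3 genes were separated without overlap, and the siRNA samples of NDUFAB1 were close together while those of NDUFA6 were spread.

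NDUFA2, with a thioredoxin-like fold, was at 17.3, 18.1 and 17.1 FPKM and at 23.4, 25.8 and 21.2 (log2 0.43, SE 0.112, edgeR adjusted p = 0.0279). NDUFA10 was at 9.17, 9.61 and 8.61 against 10.96, 10.96 and 10.99 (log2 0.27, SE 0.0727, edgeR adjusted p = 0.0304). The remaining 8 genes of the series did not pass. Of the 30 accessory subunits NDUFA12 and NDUFS6 had negative fitted values. NDUFA12 stood at 15.6, 9.40 and 8.46 FPKM in the controls and at 7.68, 9.96 and 6.93 in the siRNA samples (log2 -0.43, SE 0.260, edgeR adjusted p = 0.241). Its groups overlapped, and si NC replicate 1 stood apart from the other 5 samples; without it the value was -0.13 (edgeR adjusted p = 0.647).

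Among the accessory genes named NDUFS and NDUFV, NDUFV3 was at 4.35, 4.38 and 3.999 FPKM in the controls and at 6.02, 5.92 and 5.60 in the siRNA samples (log2 0.47, SE 0.0844, edgeR adjusted p = 0.0086). NDUFS5, an intermembrane-space protein, had the highest FPKM of all members, at 329.5, 319.1 and 316.1 against 420.2, 498.1 and 395.2 (log2 0.45, SE 0.113, edgeR adjusted p = 0.0237). NDUFS4, of the NADH dehydrogenase module, was at 29.8, 24.2 and 27.2 against 33.7, 33.9 and 33.2 (log2 0.32, SE 0.0887, edgeR adjusted p = 0.0331). NDUFS6, of the same module, overlapped between groups at 43.8 ± 0.879 and 43.0 ± 3.76 FPKM (SD, n = 3 each, log2 -0.02, edgeR adjusted p = 0.846). The module therefore held called and uncalled members in its core and in its accessory part.

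Among the 8 assembly factors, NDUFAF4 and NDUFAF8 rose, where 16.2% of all genes tested were called higher. NDUFAF4, which acts with NDUFAF3 early in assembly, was at 6.27, 6.45 and 5.99 FPKM in the controls and at 9.80, 10.9 and 8.95 in the siRNA samples (log2 0.67, SE 0.113, edgeR adjusted p = 0.00723). NDUFAF8, the partner protein of NDUFAF5, was at 14.1, 14.7 and 15.3 against 20.9, 25.4 and 21.6 (log2 0.63, SE 0.119, edgeR adjusted p = 0.0101). Among all 46 members only NDUFB3 had a higher fold change than these. Their partners did not pass: NDUFAF5, which hydroxylates NDUFS7, was at 1.11, 1.07 and 1.23 FPKM against 1.33, 1.53 and 1.52 (log2 0.37, edgeR adjusted p = 0.0536). NDUFAF3 was at 11.04, 13.4 and 11.04 against 11.05, 12.7 and 11.2 (log2 -0.02, edgeR adjusted p = 0.938).

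The other assembly factors lay between these. NDUFAF2, a paralog of NDUFA12, was at 19.1, 19.3 and 17.2 FPKM against 27.8, 28.3 and 20.6 (log2 0.47, SE 0.152, edgeR adjusted p = 0.0513), without overlap, so that the paralogs had fitted values of opposite sign and neither passed; that of NDUFA12 rested largely on si NC replicate 1 (-0.13 without it). NDUFAF1, a member of the complex that assembles part of the membrane arm, was at 6.68, 6.61 and 6.77 against 7.56, 8.12 and 7.67 (log2 0.22, edgeR adjusted p = 0.108). NDUFAF7, an arginine methyltransferase, was at 3.86, 2.71 and 3.44 against 4.50, 3.67 and 5.11, with overlap (log2 0.41, edgeR adjusted p = 0.0847). NDUFAF6 was at 1.70, 1.65 and 1.88 against 2.17, 1.84 and 2.17, also with overlap (log2 0.25, edgeR adjusted p = 0.106).

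Of 12 complex I assembly factors without the NDUF name, 1, TMEM126B, rose and 0 fell, with a median log2 fold change of 0.15. That is 8.3% higher, beside 16.2% higher and 19.3% lower over all genes tested. FPKM groups did not overlap in 6 of the 12 upwards and in 1 downwards, beside 24.6% and 27.5% of all genes. DESeq2 called 4 of the 12 higher and 0 lower, where it called 19.6% of all genes higher. TMEM126B, which works with NDUFAF1, went from 7.22 ± 0.725 to 9.97 ± 0.437 FPKM (SD, n = 3 each, log2 0.47, edgeR adjusted p = 0.0148), and after the GC correction described below it did not pass (log2 0.13, adjusted p = 0.273). ACAD9, from the same assembly complex, stood at 10.2 ± 0.752 and 8.61 ± 0.659 (SD, n = 3 each, log2 -0.23, edgeR adjusted p = 0.105). TIMMDC1 (log2 0.36) and DMAC1 (0.50) did not pass (edgeR adjusted p = 0.0572 and 0.0801).

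Among the 40 subunit genes by name, 3 are not regular complex I subunits. NDUFA4, now known as a subunit of cytochrome c oxidase, was at 19.9, 21.0 and 20.8 FPKM in the controls and at 28.7, 37.3 and 26.5 in the siRNA samples and rose (log2 0.60, SE 0.153, edgeR adjusted p = 0.0264). Its hypoxia-inducible paralog NDUFA4L2 was nearly silent, at 0.0584, 0.267 and 0.237 against 0.151, 0.0567 and 0.118, and was not tested. The readthrough gene NDUFC2-KCTD14 was not tested either, at 1.41, 0.414 and 0.0498 against 1.49, 0.0568 and 0.997, with the spread inside each group larger than the difference. Without these 3 genes 15 of 37 subunit genes rose, with a median log2 value of 0.33, where 16.2% of all genes tested were called higher.

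FPKM differed widely among subunits that stand in the same complex. Between genes it also depends on the transcript lengths used, and the annotation behind them is not given. Mean FPKM over all 6 samples ran from 3.46 for NDUFA5 to 379.7 for NDUFS5 among the tested subunit genes, with medians of 10.4 for the core and 20.9 for the accessory subunits. The assembly factors were lower, from 1.298 for NDUFAF5 to 22.0 for NDUFAF2, with a median of 7.64. Among all genes tested the median was 5.11.

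PLOD3 siRNA replicate 2 carried the highest FPKM in 27 of the 46 tested members, against 6 each for siRNA replicates 1 and 3. Relative to the si NC mean of each gene, the median log2 CPM (counts scaled to library size) of the 38 subunit genes was 0.28, 0.51 and 0.22 in siRNA replicates 1 to 3, and between -0.02 and 0.03 in the si NC samples. For the assembly factors it was 0.36, 0.41 and 0.35. All 3 siRNA samples were thus above all 3 controls, with replicate 2 highest. Without siRNA replicate 2, edgeR called 12 subunit genes and 2 assembly factors higher, and 14 of the 18 called members kept their call.

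**Figure D3:**
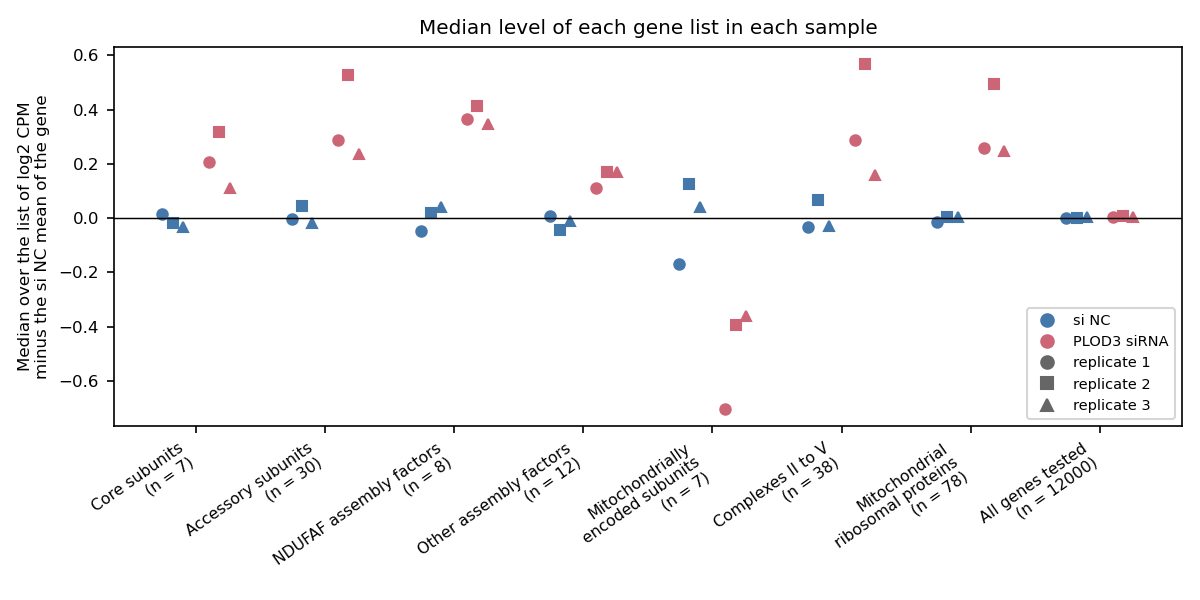
The y axis is the median over each gene list of log2 CPM minus the si NC mean of the gene, with a point per sample; colours mark the groups and symbols the replicate number. The accessory subunits lie at 0.29, 0.53 and 0.23 in PLOD3 siRNA replicates 1 to 3 and the mitochondrially encoded subunits at -0.70, -0.39 and -0.36.

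Many members lost their call when a single sample was left out, in fits that also had fewer samples. Of the 18, 8 kept their call whichever sample was left out: NDUFAB1, NDUFA6, NDUFA9, NDUFB2, NDUFB3, NDUFV3, NDUFAF4 and NDUFAF8. Without si NC replicates 1, 2 and 3 in turn 10, 11 and 8 of the 18 kept it, and the subunit genes called were 8, 10 and 6. Without PLOD3 siRNA replicates 1, 2 and 3 in turn 10, 14 and 15 kept it, and the subunit genes called were 9, 12 and 16. NDUFA10 kept it only without si NC replicate 2 and NDUFS4 only without si NC replicate 1, both in 1 of 6 fits. NDUFS1 lost it without si NC replicate 3 or PLOD3 siRNA replicate 1. NDUFV2, NDUFB6 and NDUFB8 kept it only without PLOD3 siRNA replicate 2 or 3, NDUFA2 only without si NC replicate 2 or PLOD3 siRNA replicate 3, and NDUFS5 and NDUFA4 without any of the 3 siRNA replicates but not without a control. The highest adjusted p over the 6 edgeR fits was 0.0575 for NDUFS1, 0.0846 for NDUFV2, 0.0907 for NDUFB6, 0.102 for NDUFB8, 0.0806 for NDUFA2, 0.0993 for NDUFA10, 0.0878 for NDUFS4, 0.0727 for NDUFS5 and 0.0711 for NDUFA4. No member was called lower in any of these 6 fits. Over all genes the share called higher without si NC replicates 1, 2 and 3 was 12.7%, 11.8% and 9.22%, and without PLOD3 siRNA replicates 1, 2 and 3 it was 9.03%, 11.3% and 13.8%.

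Fold changes in these libraries moved with the GC content of the transcript. Over 11968 genes Spearman's rho between log2 fold change and GC content was -0.50, and over the 46 members it was also -0.50; genes share the same 6 libraries and these values are descriptions. After the correction described next, rho was -0.02 over all genes and 0.40 over the members, so that among the members it changed sign. After a correction for the GC trend of each sample (a loess curve, used as an offset in edgeR), 18 members were again called higher and 0 lower, where 13.0% of all genes were called higher. The median log2 value of the subunit genes was 0.31. However, only 11 of the 18 were the same genes. The 7 that lost the call were NDUFS1, NDUFV2, NDUFS4, NDUFA10, NDUFB6, NDUFA4 and NDUFAF4, and the 7 that gained it were NDUFA1, NDUFA11, NDUFB7, NDUFB10, NDUFB11, NDUFS7 and NDUFAF3.

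After the GC correction both core calls of the NADH dehydrogenase module were among those lost: NDUFS1 moved from 0.33 to 0.14 (adjusted p = 0.126) and NDUFV2 from 0.33 to 0.12 (adjusted p = 0.302). In the quinone module NDUFS7, with a GC content of 64.9%, moved from 0.03 to 0.41 (adjusted p = 0.0137). NDUFAF4, at 36.3% GC, moved from 0.67 to 0.35 (adjusted p = 0.111), and NDUFAF8, at 60.2% GC, from 0.63 to 0.90 (adjusted p = 0.00494). Of the 23 members at or under the members' median GC content of 47.6%, 10 were called before the correction and 3 after it, and of the 23 above it 8 and 15.

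**Figure D4:**
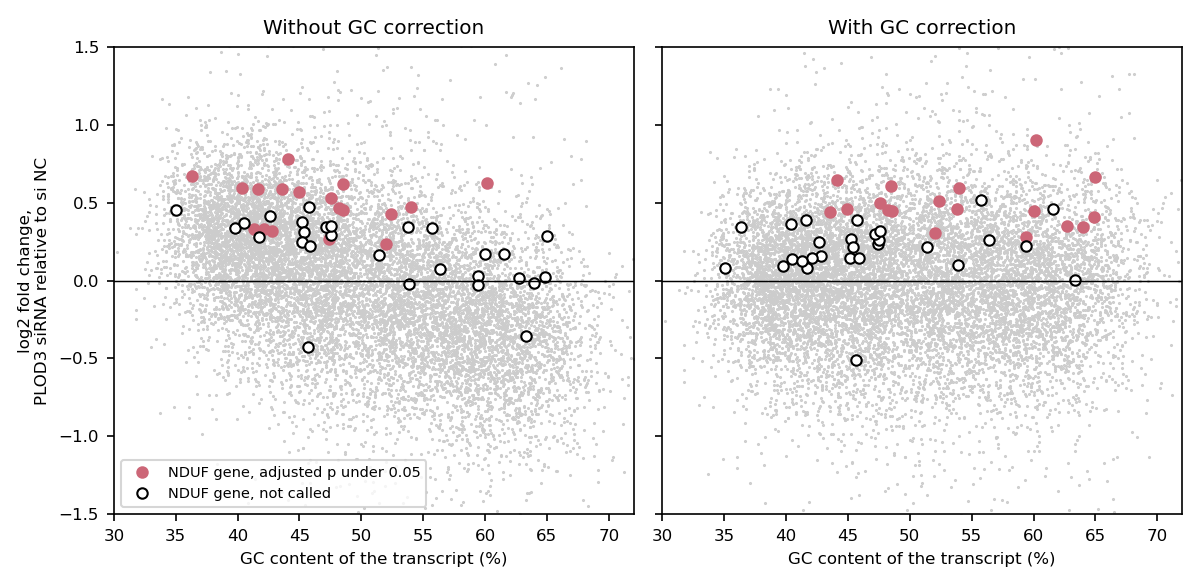
GC content of the transcript (%, x axis) against log2 fold change (PLOD3 siRNA relative to si NC, y axis), without correction on the left and with the GC correction on the right. Grey points are all genes tested within the plotted range and circles the NDUF genes, filled where the adjusted p is under 0.05; the called members number 18 in both panels, 3 of them after the correction at or under a GC content of 47.6%.

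The members are also short, with a median transcript length of 1314.5 bases against 3019 for all genes tested. When length was corrected as well as GC content, 13 subunit genes and 1 assembly factor, NDUFAF8, were called higher and 0 lower, beside 14.2% of all genes higher. The median log2 values fell to 0.24 for the subunit genes and 0.24 for the assembly factors. NDUFS4 and NDUFV2 then stood at -0.07 each (edgeR adjusted p = 0.534 and 0.326). Other settings called between 13 and 28 of the members higher and 0 lower. DESeq2 called 20 subunit genes and 5 assembly factors (19.6% of all genes), edgeR with upper quartile scaling 18 and 4 (17.2%), with library totals alone 18 and 4 (16%) and with counts divided by 4 16 and 2 (16.3%). Limma called 18 and 3 on log2(FPKM + 1) (15.5%), 18 and 3 on log2(FPKM + 0.1) (15.3%), 24 and 4 on log2(TPM + 1) (20.6%) and 13 and 3 after quantile normalization (16.6%). Without an FPKM filter 11 and 2 were called (4.49% of 32482 genes), and at a mean FPKM of at least 5 15 and 2 (19.6% of 6095 genes). The replicate number as a block gave 11 and 3 (12.3%), and with the GC correction 13 and 1 (8.77%). Over all genes the share called lower in these fits and the leave-outs ran from 6.29% to 22.2%. Over all 20 alternative settings, 7 of the 18 members kept their call in each: NDUFAB1, NDUFA6, NDUFA9, NDUFB2, NDUFB3, NDUFV3 and NDUFAF8.

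Upstream sequence is shown for the 5 members with the smallest p and for NDUFA9, added after its matches were seen. Of the 48 members 40 were found by symbol in the RefSeq promoter table (GRCh38.p14), with 52 start sites, NDUFA4 and NDUFA4L2 not among them. In windows from 250 bases before to 50 after a start, on both strands, the NRF1 motif (GCGCA, any base, then GCGC) was found in 7 of 40 members (17.5%, against 7.0% of 27305 genes in the table). The ETS motif CCGGAAG, bound by GABP, was found in 7 (17.5% against 12.2%) and the YY1 motif (AAGATGG, then CGGC) in 3 (7.5% against 1.0%). CCAAT was found in 12 (30% against 39.7%) and TATAAA in 3 (7.5% against 14%). None of the motifs contains another. The YY1 letters were found in NDUFA9, NDUFAF8 and NDUFS4, downstream of the start in each, the NRF1 letters in NDUFA3, NDUFA8, NDUFA9, NDUFA11, NDUFA12, NDUFB4 and NDUFAF5, and the ETS letters in NDUFA1, NDUFA13, NDUFB7, NDUFS1, NDUFS3, NDUFAF4 and NDUFAF8. Of the 40 members with a window 15 were called higher in the fit without correction. Of the 15 members with any of these 3 motifs 5 were called, by motif 3 of 3 for YY1, 1 of 7 for NRF1 and 3 of 7 for ETS, a share of calls no higher over the 3 motifs together than over all members with a window; this was not tested. A match is a description of letters, and binding was not measured. The 150 bases before the start are given from 5' to 3' on the gene's strand, with ETS or NRF1 letters in capitals (NDUFAF4 and NDUFAF8 hold an ETS match, NDUFA9 an NRF1 match on the opposite strand); for NDUFAF8, with 3 listed start sites, the site with an ETS match before it is shown.
NDUFAB1 (chr16:23596317-23596466, minus strand): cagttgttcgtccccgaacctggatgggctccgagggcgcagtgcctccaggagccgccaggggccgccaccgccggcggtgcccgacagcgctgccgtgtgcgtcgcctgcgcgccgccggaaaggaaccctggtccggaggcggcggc
NDUFAF4 (chr6:96897892-96898041, minus strand): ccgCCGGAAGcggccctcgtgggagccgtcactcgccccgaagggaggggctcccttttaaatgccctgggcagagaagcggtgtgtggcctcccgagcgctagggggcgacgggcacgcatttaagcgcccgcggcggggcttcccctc
NDUFB3 (chr2:201071851-201072000, plus strand): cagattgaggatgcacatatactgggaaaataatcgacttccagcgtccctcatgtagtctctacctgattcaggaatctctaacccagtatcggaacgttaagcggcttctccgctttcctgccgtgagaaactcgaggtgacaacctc
NDUFV3 (chr21:42893159-42893308, plus strand): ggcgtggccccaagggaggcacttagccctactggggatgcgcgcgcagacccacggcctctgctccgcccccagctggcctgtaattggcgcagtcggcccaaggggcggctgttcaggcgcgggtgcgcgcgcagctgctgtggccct
NDUFAF8 (chr17:81239168-81239317, plus strand): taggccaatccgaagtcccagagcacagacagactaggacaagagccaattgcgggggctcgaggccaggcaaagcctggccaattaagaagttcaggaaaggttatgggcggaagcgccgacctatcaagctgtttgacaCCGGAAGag
NDUFA9 (chr12:4648964-4649113, plus strand): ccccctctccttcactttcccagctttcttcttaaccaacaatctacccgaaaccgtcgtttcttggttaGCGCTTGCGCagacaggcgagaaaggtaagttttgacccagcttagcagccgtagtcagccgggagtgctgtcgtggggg

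Of 9 regulators of nuclear respiratory genes, 8 were tested and 1, TFAM, which packages and transcribes mitochondrial DNA, rose, from 8.47 ± 0.731 to 12.1 ± 0.657 FPKM (SD, n = 3 each, log2 0.52, edgeR adjusted p = 0.00512; 0.25 after the GC correction, adjusted p = 0.0195). This 1 call is 12.5% of the 8 tested, beside 16.2% of all genes tested. The ETS factor GABPA did not pass (log2 0.44, edgeR adjusted p = 0.0547), nor did NRF1 (0.24, adjusted p = 0.161) or YY1 (0.16, adjusted p = 0.540). Of the 8 tested regulators 5 had positive and 3 negative log2 values, the lowest at -0.43, and 0 were called lower. The coactivator gene PPARGC1A was listed without reads in all 6 samples.

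The mitochondrially encoded partners of these subunits had values of the opposite sign. Of 7 MT-ND genes 0 rose and 5 fell (median log2 -0.47), beside 16.2% higher and 19.3% lower over all genes tested. MT-ND5 went from 3505 ± 298 to 2189.8 ± 321 FPKM (SD, n = 3 each, log2 -0.68, edgeR adjusted p = 0.0121). Under quantile normalization the median of the 7 genes was -0.04 with 1 gene lower, and without si NC replicate 3 or PLOD3 siRNA replicate 1 only 1 gene was called lower. After the GC correction 4 were lower (median -0.57), beside 14.5% of all genes. With the GC and length correction all 7 were lower (median -0.79), beside 13.1% of all genes. For comparison, in the fit without correction 15 of 38 nuclear genes of complexes II to V rose and 1 fell (median 0.34). Of 78 mitochondrial ribosomal protein genes 35 rose and 1 fell (median 0.34). Over all genes tested 16.2% rose and 19.3% fell in that fit. The complex I genes thus lay close to both lists, and no difference from them was tested.

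Some members overlap other genes, so their values may include shared reads. In GENCODE, 15 of the 48 members share exon bases with a gene of mean FPKM of at least 1, of which 13 do so with a gene on the opposite strand, and the strand setting of the counting is not given in the sources used here. On the same strand this concerns NDUFS3, NDUFA7, NDUFA13, NDUFB2, NDUFB8 and NDUFC2-KCTD14. NDUFS3 shares 721 bases with PTPMT1, which stood at 14.1 FPKM in the controls and 17.4 in the siRNA samples. NDUFA2 overlaps IK on the other strand by 70 bases, and IK stood at 29.2 and 40.3 FPKM. The table also lists 61 NDUF pseudogenes, 38 of them without reads in all samples and 5 with a mean FPKM of at least 1. The highest, NDUFV2P1, had 4.76, 5.05 and 4.32 FPKM among the controls and 5.73, 5.07 and 6.23 among the siRNA samples (log2 0.27, edgeR adjusted p = 0.158), so the level of NDUFV2 is uncertain to the extent that reads were shared.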

How the data were processed

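RNA-seq was deposited for 6 samples of HCT116 cells, 3 per group, as 1 table of 60612 genes; groups and replicate numbers came from the sample titles, and 0 value columns were left unmapped. The authors deposited FPKM, with 0.0001 for a gene without reads, and, per the file headers, a count column for each sample, read here as estimated counts written as whole numbers. Per the submitters' processing notes the tools included StringTie 1.3.4d, HISAT2 2.0.4 and cutadapt 1.9; the sources used here do not give the build, annotation or strand setting. Low counts piled up at 4 (1490 genes per sample, against 558 at 3), so a unit may not be a single read pair.

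The 12000 genes whose FPKM averaged 1 or more across the 6 samples were tested with edgeR 4.0.16 in R 4.3.3 on the deposited counts, scaled by TMM (quasi-likelihood, two-sided, Benjamini-Hochberg over all 12000, threshold 0.05, no covariate), with limma 3.58.1 and DESeq2 1.42.0 as alternatives. Of the fits, edgeR, its GC and length correction, its replicate block and limma on log2 counts were run on simulated counts with known changes. These counts held no GC or length trend, so they cannot show how well the corrections remove one. The SE is the absolute log2 fold change divided by the square root of edgeR's F. GC content and length came from the longest coding transcript in GENCODE, matched by identifier for 99.73% of the tested genes; loess span 0.5. Files are used at gene level. Values of 1 member, included in the counts, are not reported here. The members and lists were chosen with earlier results of these data known. Values in every sample are given by rule for the core subunits, the 10 accessory subunits with the smallest p, the assembly factors, NDUFA4 and NDUFA4L2, plus NDUFA12 and NDUFC2-KCTD14, added after their values were seen; sequences follow the rule stated beside them. From the other lists up to 4 genes with the smallest p are named, and further ones (ACAD9, NRF1, YY1, PPARGC1A) after their values were seen.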

Additional observations from a re-analysis of the deposited data

How the results depend on the processing

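Over 20 alternatives to the edgeR fit, 0 subunit genes and 0 assembly factors were called lower, and the median log2 fold change of the subunit genes stayed within 0.23 to 0.41. The subunit genes called higher numbered 6 to 16 when a sample was left out and 11 to 24 in the other fits. The assembly factors called higher numbered 5 in DESeq2, 4 with upper quartile scaling, 4 with library totals only, 4 in limma on log2(TPM + 1), 1 after the GC and length correction and 1 in the replicate block with the GC correction, against 2; leaving out a sample gave 2 to 3. Their median moved from 0.39 to 0.26 in limma on log2(FPKM + 1), 0.31 with quantile normalization (added after seeing the data), 0.30 after the GC correction, 0.24 after the GC and length correction and 0.29 in the replicate block with the GC correction, and to 0.32 to 0.43 when a sample was left out. The causes were not tested, and the fits that left out a sample or genes also had fewer samples or genes.

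Over all genes, 1945 were called higher and 2319 lower; a minimum mean FPKM of 5 gave 1192 and 1354, the replicate block with the GC correction 1052 and 1210, leaving out a sample 1083 to 1651 and 1509 to 2011, and limma on log2(TPM + 1) 2470 and 1461, a share of 62.8% higher against 45.6%.

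The replicate number alone as a block gave 11 subunit genes and 3 assembly factors higher, 13 of the 18 called members kept their call, and those that lost it included NDUFA10, NDUFB6, NDUFS4 and NDUFV2. Same-numbered samples did not deviate together (r = 0.049, -0.011 and -0.023 across genes), so the numbers are not read as pairs.

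Of the called members, 16 of 18 kept a positive value in all 20 alternatives; after the GC and length correction NDUFS4 stood at -0.0662 and NDUFV2 at -0.0687. The sign of uncalled members turned as follows. After the GC correction NDUFV1 stood at 0.22, NDUFS8 at 0.0027, NDUFS6 at 0.10 and NDUFAF3 at 0.34, and in the replicate block with that correction at 0.22, 0.0228, 0.10 and 0.34. After the GC and length correction NDUFV1 stood at 0.20, NDUFAF3 at 0.28 and NDUFB4 at -0.0569. In limma on log2(TPM + 1) NDUFV1 stood at 0.0582, NDUFS6 at 0.0758 and NDUFAF3 at 0.0851. At a mean FPKM of at least 5 NDUFA11 stood at -0.0287 and NDUFB10 at -0.0151, and with quantile normalization NDUFA8 stood at -0.0322, NDUFA11 at -0.0286 and NDUFB10 at -0.16. With a sample left out NDUFA3 ranged from -0.0322 to 0.18, NDUFA11 from -0.0654 to 0.13, NDUFB10 from -0.0117 to 0.0844, NDUFS6 from -0.0631 to 0.0227, NDUFS7 from -0.0408 to 0.15, NDUFAF3 from -0.11 to 0.10 and NDUFV1 from -0.23 to 0.11.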
